A study of Mus musculus with 6 samples.

Results

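Polycomb repressive complex 2 (PRC2) was examined through 10 genes: Ezh1, Ezh2, Eed, Suz12 and Rbbp4 of its core, the Polycomb-like genes Mtf2, Phf1 and Phf19, and the accessory genes Jarid2 and Aebp2. They were chosen by name as core and accessory subunits, with no threshold on measured values, but with earlier results of these data known. All 10 were found among the 27179 genes of the count table. The libraries came from mouse embryonic stem cells of the ES-E14TG2a background, grown on gelatin in 2i + Lif medium, which holds them in a naive pluripotent state with inhibitors of MEK and GSK3 and with leukemia inhibitory factor. Cells of both groups carried FLAG-tagged Trim71, an RNA-binding protein of embryonic stem cells, so there was no group without the tag. In the R783H group (3 libraries, A, B and C) the tagged protein had the R783H change, which the series links to hydrocephalus, and in the wild-type group (WT, 3 libraries, A, B and C) it had no such change. Poly(A) RNA was sequenced, and the single comparison asks which transcripts differ in level between R783H and WT cells. The labels do not say whether a letter stands for a clone, a culture or a library preparation, so the p-values measure the spread between these libraries, which may be technical.

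PRC2 places methyl groups on lysine 27 of histone H3, a mark of silenced developmental genes. Ezh2 or its paralog Ezh1 is the catalytic subunit, Suz12 is the scaffold, Eed reads the trimethylated mark and stimulates the enzyme, and Rbbp4 or its paralog Rbbp7 binds histones. The core joins accessory subunits in alternative assemblies: PRC2.1 holds a Polycomb-like protein (Mtf2, Phf1 or Phf19) together with Epop or a protein of the Lcor and Lcorl genes, and PRC2.2 holds Jarid2 and Aebp2. In embryonic stem cells PRC2 keeps lineage regulators such as the Hox genes at low levels.

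Total counts ran from 20894277 to 29079670 per library, with the R783H group the deeper one in all of its libraries. Levels are given as CPM, the counts divided by library size with TMM factors, which lay between 0.967 and 1.03. R783H B stood apart from its group: the median absolute log2 difference across genes was 0.136 to R783H A and 0.143 to R783H C, against 0.0686 between A and C and 0.0758 to 0.108 among the WT libraries. Of 8 markers of embryonic stem cells (Pou5f1, Sox2, Nanog, Zfp42, Esrrb, Tfcp2l1, Klf4, Dppa5a) all were abundant, with summed levels of 6790 to 6924 CPM in R783H and 6957 to 7041 CPM in WT, without overlap. By log2 fold change, R783H over WT, Zfp42 (-0.36), Nanog (-0.23) and Pou5f1 (-0.21) were lower, and Dppa5a (0.30) and Tfcp2l1 (0.17) higher. Each of these had an adjusted p of at most 0.015 (edgeR quasi-likelihood test). Sox2 (0.016), Esrrb (-0.007) and Klf4 (-0.008) hardly moved. Fibroblast markers (8 genes) summed to 11.9 CPM in each R783H library and 10.8 to 11.8 CPM in WT, of which Pdgfrb made the larger share. Pdgfrb was called higher (9.39 against 7.59 CPM, log2 0.30, edgeR adjusted p 0.0154). Thy1, at few counts, was called lower (0.194 against 1.31 CPM, log2 -2.74, edgeR adjusted p 4.09e-05). Col1a1 and Col1a2 were not called, Col3a1, Dcn, Lum and Postn were not tested, and Postn had a single count in 1 library. Endoderm markers (8 genes) summed to 10.3 to 11.1 CPM in R783H and 5.18 to 7.62 CPM in WT, with Afp at 0 in every library. Trim71 itself had 151.7, 129 and 150.5 CPM in R783H A, B and C and 130.8, 131.2 and 159.4 CPM in WT A, B and C, which overlapped. Its log2 fold change, R783H over WT, was 0.03 (SE 0.08; edgeR quasi-likelihood test, adjusted p 0.743). An offset for transcript length and GC content moved it to -0.21 (edgeR, adjusted p 0.00804). Exons of Trim71, Lcorl, Elob, Ash1l, Mbd5, Evx1, Rbbp7, Kdm6b and Idua, all named below, overlap a gene on the opposite strand, and those of Ep300 and Hoxd4 a gene on the same strand.

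The promoters of 3 genes are shown because the catalytic pair moved in opposite directions and Phf19 had the largest change of the 10. Each is the 250 bases before the RefSeq start site on GRCm38.p6, the build of the submitters' notes (mm10), written 5′ to 3′ on the gene's own strand. Ezh1 lies at chr11:101226464-101226713, Ezh2 at chr6:47595031-47595280 and Phf19 at chr2:34913977-34914226, all on the minus strand. Capitals mark CCAAT boxes (CCAAT) and E2F motifs (TTTCCCGC, TTTCGCGC, TTTGCCGC or TTTGGCGC), searched on both strands.
Ezh1: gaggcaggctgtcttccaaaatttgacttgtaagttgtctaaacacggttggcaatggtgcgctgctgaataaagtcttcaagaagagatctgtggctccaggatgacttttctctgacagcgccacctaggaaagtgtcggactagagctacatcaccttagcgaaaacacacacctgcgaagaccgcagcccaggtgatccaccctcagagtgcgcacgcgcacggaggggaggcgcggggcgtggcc
Ezh2: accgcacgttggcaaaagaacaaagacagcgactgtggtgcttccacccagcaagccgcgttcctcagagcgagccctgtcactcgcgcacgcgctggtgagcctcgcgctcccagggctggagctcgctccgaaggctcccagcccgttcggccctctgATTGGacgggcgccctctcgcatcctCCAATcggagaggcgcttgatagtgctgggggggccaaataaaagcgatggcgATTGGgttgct
Phf19: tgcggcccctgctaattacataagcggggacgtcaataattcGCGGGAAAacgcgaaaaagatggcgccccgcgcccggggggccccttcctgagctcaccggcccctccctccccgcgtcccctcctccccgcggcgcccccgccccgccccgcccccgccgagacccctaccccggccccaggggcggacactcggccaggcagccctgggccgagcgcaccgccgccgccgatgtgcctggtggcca
The Ezh2 window held 3 CCAAT boxes, 11, 64 and 90 bases before the start (counted to the first base of the match), and the Ezh1 window held 0. The Phf19 window held 1 E2F motif, 208 bases before its start. Over 32817 RefSeq promoters of this length, 33.8% held a CCAAT box and 1.86% held an E2F motif. All 10 genes had a window, with 14 start sites in all. Of these genes, 6 had a CCAAT box in a window and 2 (Suz12 and Phf19) an E2F motif. These are counts per gene over all its windows, so they cannot be set against the shares per promoter. For Mtf2 and Aebp2 the CCAAT box lay only at a start site other than the first. CpG dinucleotides numbered 14 in the Ezh1, 23 in the Ezh2 and 31 in the Phf19 window, against a median of 6 over all promoters. A match describes these letters alone.

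PRC2 genes changed in both directions in R783H cells. Ezh1, Phf1 and Jarid2 were higher, Ezh2, Eed, Rbbp4 and Phf19 were lower, and Suz12 and Mtf2 did not pass the test; Aebp2 passed narrowly on the higher side. Calls are made at a Benjamini-Hochberg adjusted p under 0.05 in edgeR's quasi-likelihood fit, over 14199 tested genes. All 10 genes passed the filter on low counts. Of them 8 were called, 4 higher and 4 lower, where 64.5% of all tested genes were called, 33.5% higher and 30.9% lower. Their median log2 fold change was 0.06 against 0.03 over all tested genes, and the groups did not overlap for 7 of the 10, where 68.1% of all genes did not overlap. Without R783H B, 5 of the 10 were called higher and 4 lower, where 9882 of 14311 genes were called in either direction. With a background this high the counts say little about PRC2 as a group, and the genes are described singly. The summed level of the 10 genes was 2010 to 2197 CPM in R783H and 2228 to 2350 CPM in WT. This sum is weighted to the better-counted genes and does not describe the 10 as a whole. Rbbp4 had the widest gap between group means, with 517.3 CPM in R783H against 690.6 CPM in WT. Ezh1, Suz12, Jarid2, Phf1 and Aebp2 had higher means in R783H, with overlapping groups for Suz12 and Aebp2. In bulk RNA, fewer cells of a type and less RNA per cell cannot be told apart.

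**Figure D1:**
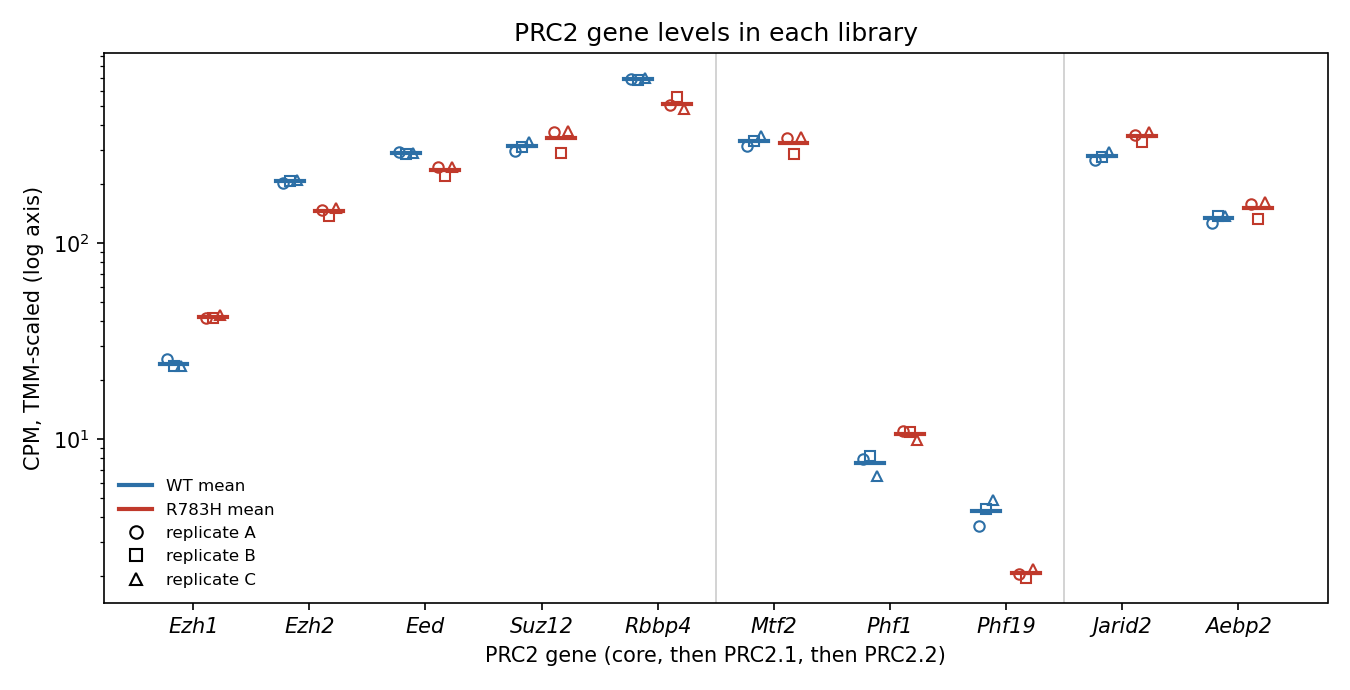
Level of each PRC2 gene in each library, as TMM-scaled CPM on a log axis, with core genes on the left, then PRC2.1 and PRC2.2 genes; symbols stand for replicates A, B and C and bars for the mean of 3 libraries. Ezh1 is higher and Ezh2 lower in every R783H library. R783H B (square) lies below R783H A and C for Ezh2, Eed, Suz12, Mtf2, Phf19, Jarid2 and Aebp2, and above them for Rbbp4.

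The catalytic subunits moved in opposite directions. Ezh1 (Entrez 14055, chromosome 11, 101191115 to 101226463 in GENCODE M21 on GRCm38) encodes the catalytic paralog that is usually the more prominent one in non-dividing cells. Its level was 41.6, 41.6 and 43.0 CPM in R783H A, B and C and 25.7, 23.6 and 23.6 CPM in WT A, B and C. All R783H libraries were above all WT libraries, with little spread in either group. The log2 fold change was 0.79 (SE 0.06, 95% interval 0.66 to 0.92), or 1.73-fold. Ezh2 (Entrez 14056, chromosome 6, 47530139 to 47595341), the catalytic paralog typical of dividing and embryonic cells, had 148, 138.1 and 151.4 CPM in R783H and 202.3, 208.3 and 211.1 CPM in WT. Every R783H library was below every WT library. The log2 fold change was -0.51 (SE 0.05, 95% interval -0.61 to -0.40), and its mean level fell from 207.2 ± 4.49 to 145.8 ± 6.91 CPM (SD, n = 3). In edgeR's quasi-likelihood fit the adjusted p was 7.29e-07 for Ezh1 and 3.58e-06 for Ezh2.

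The remaining core genes did not follow a single direction. Eed (Entrez 13626, chromosome 7, 89954654 to 89980983), which encodes the reader of the trimethyl mark, had 246.5, 220.2 and 246.6 CPM in R783H and 291.6, 286.9 and 290.8 CPM in WT. The groups did not overlap, and R783H B was the lowest library. Its log2 fold change was -0.29 (SE 0.05, edgeR adjusted p 0.000434). Rbbp4 (Entrez 19646, chromosome 4, 129307100 to 129335370), the histone-binding subunit shared with other chromatin complexes, had 505.9, 559.2 and 486.9 CPM in R783H and 693.5, 680 and 698.3 CPM in WT. It was the most abundant of the 10 genes by CPM and was lower in all R783H libraries, with B the highest among them. Its log2 fold change was -0.42 (SE 0.05, edgeR adjusted p 3.48e-05). Suz12 (Entrez 52615, chromosome 11, 79993106 to 80034123), the scaffold that holds the enzyme and the accessory subunits, had 372.1, 288.5 and 373.8 CPM in R783H and 295.1, 311.7 and 330.1 CPM in WT. R783H A and C were above all WT libraries and R783H B was below them all, so the groups overlapped. The log2 fold change was 0.14 (SE 0.09, 95% interval -0.05 to 0.33, edgeR adjusted p 0.17). Suz12 was called higher without R783H B (0.23, edgeR adjusted p 0.000106) and with library sizes alone (0.225, edgeR adjusted p 0.048), and stood at 0.029 with the length and GC offset.

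The Polycomb-like genes encode proteins that bind unmethylated CpG-rich DNA and bring PRC2.1 to chromatin. Mtf2 (Entrez 17765, chromosome 5, 108065674 to 108109004), the dominant member here, had 343, 287.4 and 348.6 CPM in R783H and 314.8, 333.4 and 353.1 CPM in WT. The libraries of the groups were interleaved. The log2 fold change was -0.03 (SE 0.07, 95% interval -0.19 to 0.12, edgeR adjusted p 0.708). The length and GC offset moved it to -0.19, called lower (edgeR adjusted p 3.19e-05), and its sign was positive without R783H B (0.028), without WT C (0.007) and with library sizes alone (0.049). Phf1 (Entrez 21652, chromosome 17, 26933052 to 26937908) had 10.98, 10.96 and 9.93 CPM in R783H and 7.92, 8.20 and 6.52 CPM in WT. It was higher in every R783H library, at a level far under that of Mtf2. Its log2 fold change was 0.49 (SE 0.10, edgeR adjusted p 0.00143). Phf19 (Entrez 74016, chromosome 2, 34893757 to 34914026) was the least abundant of the 10, at 62, 56 and 65 counts in the R783H and 73, 108 and 105 counts in the WT libraries. In CPM these were 2.06, 1.97 and 2.19 against 3.61, 4.40 and 4.92, without overlap, although WT A lay closer to R783H than the other WT libraries did. Its log2 fold change of -1.06 (SE 0.15, 95% interval -1.39 to -0.72, edgeR adjusted p 9.51e-05) was the largest change among the 10 genes and the one with the fewest counts.

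The PRC2.2 genes were both on the higher side. Jarid2 (Entrez 16468, chromosome 13, 44729474 to 44921643), a protein that helps recruit and stimulate the enzyme, had 356, 328.7 and 371.2 CPM in R783H and 266.9, 274.7 and 294.3 CPM in WT. All R783H libraries exceeded all WT libraries. The log2 fold change was 0.34 (SE 0.05, edgeR adjusted p 0.000248), and 0.17 with the length and GC offset, where it was still called (edgeR adjusted p 0.000974). Aebp2 (Entrez 11569, chromosome 6, 140622663 to 140678472), a zinc finger protein that stabilises the complex, had 159.5, 133.2 and 163.1 CPM in R783H and 126.5, 138.6 and 137.3 CPM in WT. R783H B lay within the WT range, so the groups overlapped. The log2 fold change was 0.18 (SE 0.07, edgeR adjusted p 0.0473). This call was lost under 10 of 16 alternatives, among them each fit that left out a library other than R783H B, and with the length and GC offset the value was -0.03 (edgeR adjusted p 0.548). Without R783H B it was 0.24 (edgeR adjusted p 9.72e-05).

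**Figure D2:**
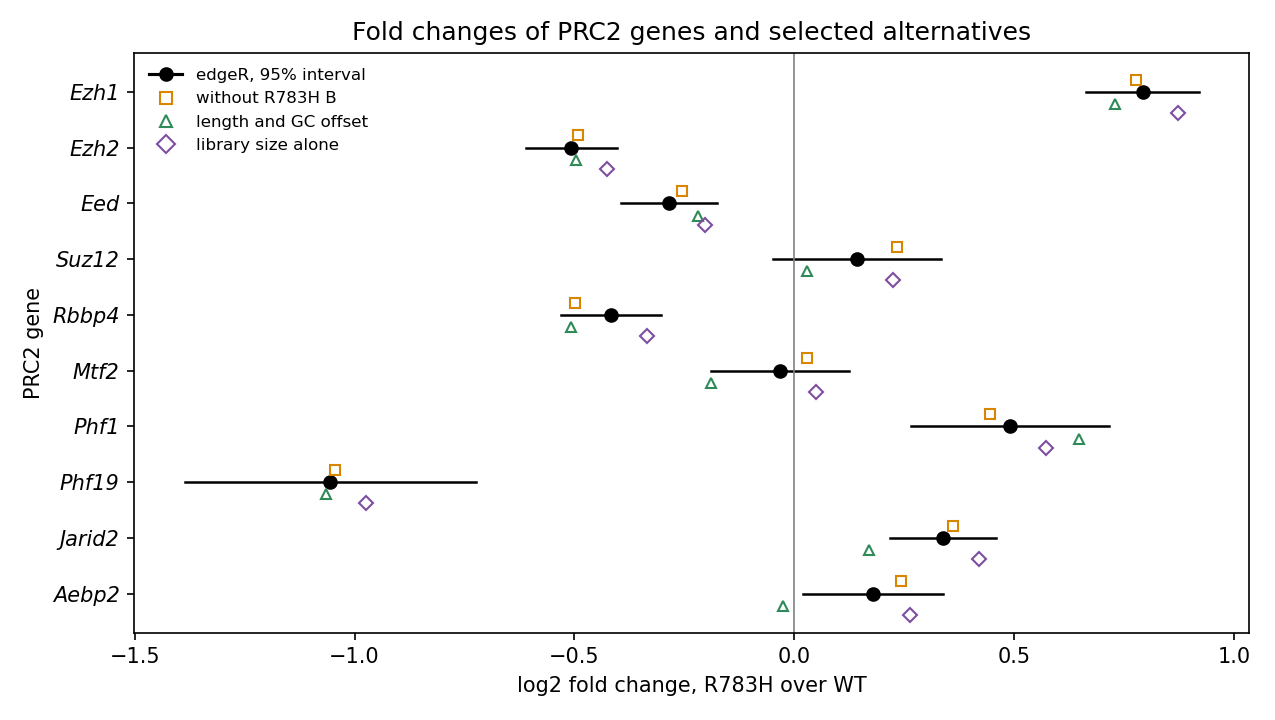
Log2 fold change of R783H over WT for each PRC2 gene, with the 95% interval of the edgeR fit as a line and 3 alternatives as open symbols. Ezh1, Phf1 and Jarid2 stay to the right of 0 and Ezh2, Eed, Rbbp4 and Phf19 to the left under the settings drawn, whereas Mtf2 and Aebp2 have alternatives on both sides.

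Exons of Ezh2, Eed, Suz12, Mtf2, Phf1 and Rbbp4 overlap exons of a gene on the opposite strand in GENCODE M21, and the use of strand in counting is not given in the sources used here, so reads of such partners cannot be told apart. The overlap is with Tmed5 for Mtf2, with Cuta for Phf1 and with Sync for Rbbp4, besides non-coding genes. Ezh1, Jarid2, Phf19 and Aebp2 share no exon sequence with another annotated gene.

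Alternative subunits were also set against each other within a library, where no scaling between libraries is needed. The log2 ratio of Ezh1 to Ezh2 counts was -1.83, -1.73 and -1.82 in R783H A, B and C and -2.97, -3.14 and -3.16 in WT A, B and C. The ratio was higher in every R783H library, by 1.299 on average, or 2.46-fold. The log2 ratio of Phf1 to Mtf2 rested at -4.94 ± 0.212 in R783H and -5.47 ± 0.249 in WT (SD, n = 3), a difference of 0.54 that ran from 0.392 to 0.634 when single libraries were left out. That of Phf19 to Mtf2 was -7.29 ± 0.097 in R783H and -6.28 ± 0.145 in WT (SD, n = 3), a difference of -1.01. These are the rarer Polycomb-like genes against the dominant one, and they differed in opposite directions. The log2 ratio of Jarid2 to Aebp2 was 1.22 ± 0.0767 in R783H and 1.055 ± 0.0598 in WT (SD, n = 3), a difference of 0.16, and 0.118 without R783H B. The groups did not overlap for any of the 4 ratios. The exact two-sided permutation p was 0.1 for each, also after adjustment over the 4 ratios, which is the smallest p that 3 against 3 libraries can give, so the design cannot pass 0.05 here.

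**Figure D3:**
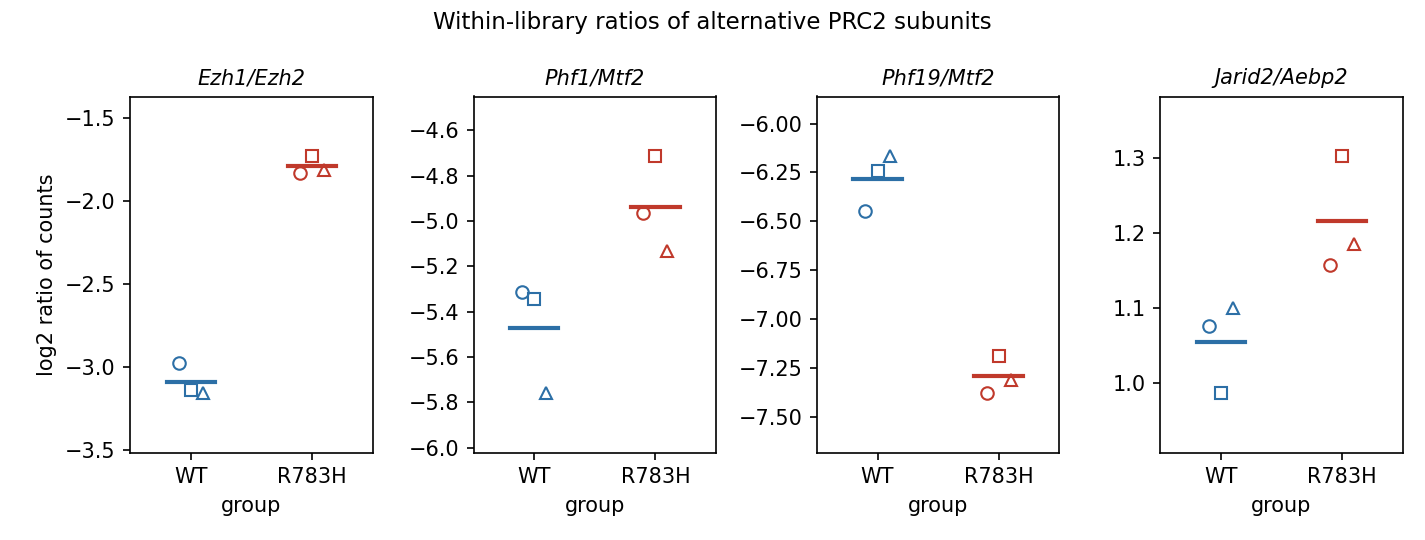
Log2 ratio of raw counts between alternative subunits within each library, with circles, squares and triangles for replicates A, B and C and bars for group means; each panel has its own vertical range. The Ezh1 to Ezh2 ratio shows the widest gap, with WT between -3.16 and -2.97 and R783H between -1.83 and -1.73.

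Levels can be compared between genes only per length, so CPM was divided by the length of the longest RefSeq-matched transcript of each gene in kilobases. On this scale Ezh1 made up 16.1 ± 0.512% of Ezh1 plus Ezh2 in R783H and 7.24 ± 0.484% in WT (SD, n = 3). With the merged exons of each gene as its length these shares were 20.6 ± 0.619% and 9.54 ± 0.62%. Ezh2 transcripts thus remained the larger part in all 6 libraries. Mtf2 made up 94.4 ± 0.731% of the Polycomb-like genes in R783H and 95.2 ± 0.453% in WT, whereas Phf1 stood at 4.99 ± 0.702% and 3.48 ± 0.555% and Phf19 at 0.654 ± 0.0404% and 1.33 ± 0.135% (SD, n = 3). In WT the per-length order of the 10 genes ran from Rbbp4 (156.7 CPM per kb) through Eed (140.2), Mtf2 (82.2), Ezh2 (74.4), Suz12 (71.4), Jarid2 (46.5), Aebp2 (22.6), Ezh1 (5.80) and Phf1 (2.99) to Phf19 (1.15 CPM per kb). Among neighbours in this order the library ranges overlapped for Ezh2 and Suz12 in WT. In R783H the order was Rbbp4 (117.4 CPM per kb), Eed (115), Mtf2 (80.4), Suz12 (78.9), Jarid2 (58.7), Ezh2 (52.3), Aebp2 (25.6), Ezh1 (10.03), Phf1 (4.21) and Phf19 (0.555). The ranges of Rbbp4 and Eed and those of Mtf2 and Suz12 overlapped there, and Ezh2 had moved below Suz12 and Jarid2 without overlap with either. With merged exon lengths the top of the order in R783H turned to Suz12 (69.7 CPM per kb), Eed (62.1), Rbbp4 (59.2) and Mtf2 (57.3). On that scale Ezh2 was below Suz12 in WT too (31.0 against 63.2 CPM per kb), and it passed below Jarid2 in R783H (21.8 against 36.2 CPM per kb).

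**Figure D4:**
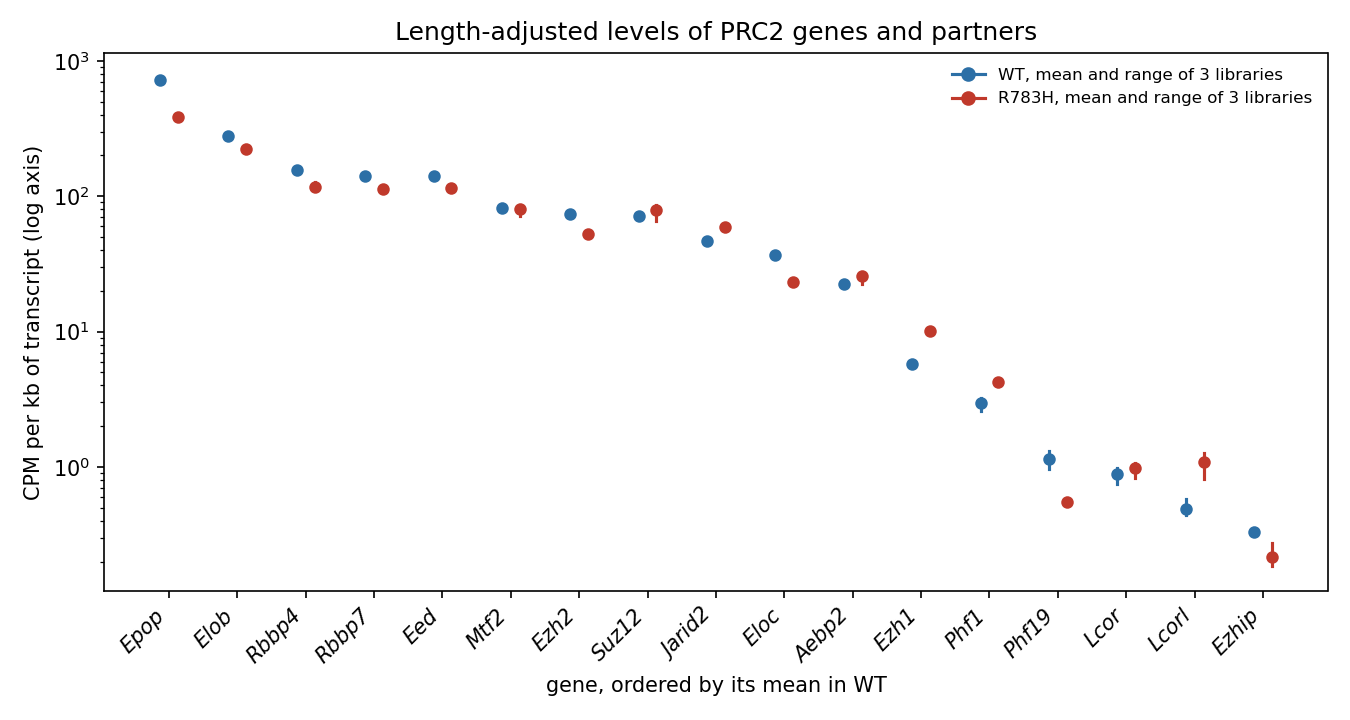
Level per kilobase of transcript of the 10 PRC2 genes and 7 further partners on a log axis, ordered by the WT mean, with lines for the range of 3 libraries. Epop is the highest at 726.1 CPM per kb in WT and 384.1 in R783H, and the points of Ezh2 and Ezh1 approach each other in R783H.

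Further PRC2 subunits and partners came from a list of 7 genes, all of them tested. Of these, 1 was called higher and 4 lower, beside 33.5% and 30.9% of all genes, and their median was -0.33 against 0.03 over all genes. Epop, a PRC2.1 subunit that links PRC2 to elongin, had 870.5, 935.1 and 860.6 CPM in R783H and 1742, 1682 and 1617 CPM in WT. It was the most abundant PRC2 gene in every library and was lower in every R783H library. Its log2 fold change was -0.92 (SE 0.05, edgeR adjusted p 8.81e-08), and -0.59 with the length and GC offset, still called. The elongin genes Eloc (-0.66, SE 0.05) and Elob (-0.33, SE 0.05) were lower too, and Elob moved to -0.12 with the offset. Rbbp7, the paralog of Rbbp4, fell from 316.2 ± 4.79 to 254.3 ± 2.32 CPM (SD, n = 3; log2 -0.31, SE 0.04). Lcorl, which encodes an alternative PRC2.1 partner, rose from 3.86 ± 0.637 to 8.61 ± 1.89 CPM (SD, n = 3; log2 1.16, SE 0.18). With the offset Lcorl moved to 0.78, still called, and R783H B (6.45 CPM) lay below R783H A and C (9.98 and 9.39 CPM). The Lcorl paralog Lcor (0.15, adjusted p 0.41) and the PRC2 inhibitor Ezhip (-0.60 at 12 to 19 counts per library, adjusted p 0.0781) were not called by edgeR.

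PRC1, the other Polycomb complex, places ubiquitin on histone H2A. Among 27 PRC1 genes the test called 11 higher and 6 lower (median 0.07), beside 33.5% and 30.9% of all genes. Without R783H A it called 7 higher and 6 lower, where 8326 of 14261 genes were called in either direction. The largest changes were in Phc3 (1.06, SE 0.11), a Polyhomeotic subunit of canonical PRC1, Pcgf1 (0.95, SE 0.08), the ring finger subunit of a variant PRC1 that binds CpG islands with Kdm2b, Mga (0.66, SE 0.09), of the variant complex with Pcgf6, and Auts2 (0.60, SE 0.08). Phc3 rose from 16.8 ± 0.83 to 34.9 ± 5.76 CPM and Pcgf1 from 12.1 ± 0.644 to 23.3 ± 2.16 CPM (SD, n = 3). With the length and GC offset Mga moved to 0.25 and the median of the list to -0.04. Of the 26 PRC1 genes in that fit, 9 were called higher and 9 lower, where 9019 of 13067 genes were called in either direction. Auts2 was not among the genes of that fit.

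Enzymes whose activity opposes PRC2 formed a list of 9 genes, with H3K27 demethylases, acetyltransferases and H3K36 methyltransferases. Of these 8 were called higher and 1 lower, beside 33.5% and 30.9% of all genes, with a median of 0.34. The demethylase Kdm6b rose from 94.7 ± 3.05 to 120.2 ± 1.43 CPM (SD, n = 3; 0.34, SE 0.04). The other H3K27 demethylase, Kdm6a, had a log2 fold change of 0.23 (SE 0.08, edgeR adjusted p 0.0198) with overlapping groups, and it was not called without R783H A, without R783H C, without WT A or with the length and GC offset. Ash1l (0.51, SE 0.09), Nsd3 (0.51, SE 0.07), Nsd1 (0.45, SE 0.06) and the acetyltransferase Ep300 (0.38, SE 0.07) rose. Nsd2 was the single gene called lower (-0.36, SE 0.05), named after its values were seen. With the length and GC offset 4 of the 9 were called higher and 1 lower, where 9019 of 13067 genes were called in either direction. The median was then 0.08. Ash1l moved to 0.175, Nsd3 to 0.211 and Nsd1 to 0.08, each still called, and Ep300 (0.10) was not called.

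PR-DUB removes the ubiquitin placed by PRC1. Of 10 genes of this complex and its partners 6 rose and 2 fell (median 0.25), beside 33.5% and 30.9% of all genes. With the length and GC offset 5 were called higher and 4 lower, where 9019 of 13067 genes were called in either direction. Bap1, the deubiquitinase itself, fell from 182.6 ± 2.73 to 121.9 ± 4.23 CPM (SD, n = 3; -0.58, SE 0.04). Its cofactor Asxl3 rose from 2.76 ± 0.345 to 8.94 ± 1.81 CPM (1.70, SE 0.17), and Mbd5 (0.79, SE 0.10) and Mbd6 (0.45, SE 0.05), which encode methyl-binding-domain proteins of the complex, rose as well. The called genes named from these 4 lists, Kdm6a aside, had an edgeR adjusted p of at most 0.000841.

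Hox genes are classical targets of PRC2 in embryonic stem cells. Of 39 Hox genes 17 passed the filter on low counts, and a gene high in 1 group alone can pass it, so the calls among them describe these 17 and not the family. Among them 10 were called higher and 1 lower, beside 33.5% and 30.9% of all genes, with a median of 0.78. The lower one was Hoxb9 (-0.42, SE 0.14), named after its values were seen, whose call was lost without R783H C, without WT A, without WT C, with DESeq2 or with library sizes alone. Summed over all 39 genes, the level was 46.7 to 50.2 CPM in R783H and 27.9 to 29.3 CPM in WT, without overlap. The difference lay in 2 of the 4 clusters. The 9 genes of the Hoxc cluster summed to 27.5 to 29.9 CPM in R783H and 11.8 to 13.1 CPM in WT, and the 9 genes of the Hoxd cluster to 6.73 to 7.97 CPM and 4.40 to 4.90 CPM. The sums of the Hoxa (6.41 to 7.72 against 6.28 to 6.83 CPM) and Hoxb clusters (4.59 to 6.03 against 5.11 to 5.69 CPM) overlapped between the groups; the differences between clusters were not tested.

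Hoxc12 and Hoxc13, which specify the posterior end of the body axis, had the largest changes among the Hox genes averaging 1 CPM or more. Hoxc13 counts were 500, 441 and 497 in the R783H libraries and 110, 155 and 134 in the WT libraries, a rise from 6.02 ± 0.494 to 16.3 ± 0.678 CPM (SD, n = 3; 1.44, SE 0.09). Hoxc12 counts were 131, 101 and 123 against 23, 20 and 20, a log2 fold change of 2.07 (SE 0.18). Hoxd9 (1.30, SE 0.25) and Hoxd4 (1.07, SE 0.27) rose to 1.497 and 1.02 CPM, and Hoxd4 shares exons with Hoxd3. Over these 4 Hox genes the edgeR adjusted p ran from 2.31e-07 to 0.00517. The 37 Hox genes other than Hoxc12 and Hoxc13 summed to 27.6 to 29.2 CPM in R783H and 20.7 to 22.7 CPM in WT.

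A further list held 56 developmental regulators known for PRC2-bound or bivalent promoters in embryonic stem cells, of which 24 passed the filter. A gene high in 1 group alone can pass it, so the calls describe these 24 and not the whole list. The test called 6 of these higher and 10 lower (median -0.16), beside 33.5% and 30.9% of all genes. Summed over all 56 genes, the level was 152 to 163 CPM in R783H and 165 to 171 CPM in WT, without overlap. This sum is weighted to the better-counted genes and does not describe the list as a whole. Among those, named after their values were seen, Eomes had 32.9 CPM in R783H against 46.3 CPM in WT. Cdkn2a went the other way, with 28.9 CPM in R783H against 17.3 CPM in WT. The median was 0.08 over the 15 genes with at least 10 counts in every library and 0.037 without WT C. T (-1.89, SE 0.10), Evx1 (-1.74, SE 0.24) and Cdx2 (-1.70, SE 0.17), regulators of the primitive streak, posterior mesoderm and trophectoderm, were lower in R783H. Gata4 (1.08, SE 0.15), an endoderm regulator that is also among the endoderm markers, was higher, with 6.68 ± 0.51 against 3.19 ± 0.80 CPM (SD, n = 3). Over T, Evx1, Cdx2 and Gata4 the edgeR adjusted p ran from 1.16e-07 to 0.000101. Gata4 itself made up the largest share of the summed endoderm markers in both groups. Among the remaining ones Sox17 had 0.897 CPM in R783H and 0.369 CPM in WT and was called higher. Gata6 (0.476 against 0.264 CPM), Dab2 (1.43 against 1.07 CPM) and Pdgfra (1.115 against 0.863 CPM) also had higher means but were not called. Sox7 (0.102 against 0.667 CPM) and Foxa2 (0.068 against 0.126 CPM) had lower means and were not tested. Foxa2 had 1 to 4 counts per library, near the floor of detection. The part of such cells in these values was not tested.

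**Figure D5:**
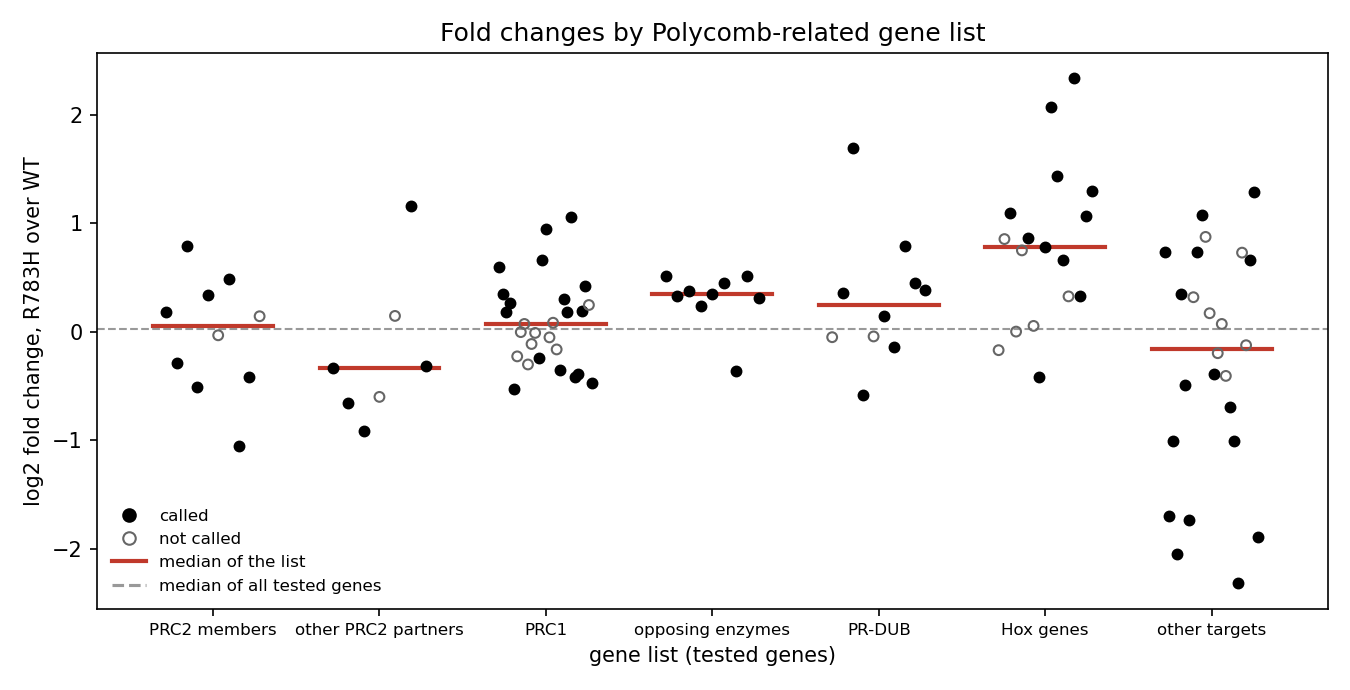
Log2 fold change of each tested gene by list, with filled points for called genes, open points for genes not called, a red bar for the median of a list and a dashed line for the median of all tested genes. PRC2 members and PRC1 genes lie on both sides of 0, the opposing enzymes lie above 0 except Nsd2, and the tested Hox genes have a median of 0.78.

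Among those of the 10 genes that were called and averaged at least 10 CPM, Ezh1 had the largest change. The tested genes whose log2 CPM followed it most closely over the 6 libraries were Idua (Pearson r 0.9998), Oscp1 (0.9995) and Pdzd2 (0.9991). These were picked for their likeness out of 14199 genes, the 6 points fall into the groups R783H and WT, and the values are a description. Their log2 fold changes were 2.30 for Idua, 0.84 for Oscp1 and 2.11 for Pdzd2.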

How the data were processed

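Poly(A)-selected RNA of 6 libraries, 3 R783H and 3 WT, was analysed. The authors deposited 1 table of counts per Entrez gene, all of them whole and with unequal sums per library, and they were treated as unnormalized. Per the submitters' processing notes, mm10, CASAVA 1.4, HISAT2 and SAMtools were used; the counting tool, annotation and strand setting are not given in the sources used here. Symbols came from RefSeq on GRCm38.p6 (25275 of 27179 identifiers matched), lengths, exons and GC content from GENCODE M21.

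R 4.3.3 with edgeR 4.0.16 was used. Genes were kept with filterByExpr (minimum count 10, minimum total 15), leaving 14199, scaled with TMM and tested by quasi-likelihood with group as the single term and Benjamini-Hochberg adjustment. SE is the log2 fold change divided by the root of F. Means are given ± SD. A count of 3, the floor of detection, was 0.103 to 0.144 CPM and covers counting error only. The steps were tested on simulated data. Alternatives used limma 3.58.1, DESeq2 1.42.0 and mgcv 1.9.3 (a smooth offset per library); BLAST 2.17.0 searched the transcripts of the 10 genes for copies of at least 98% identity over 100 nt and found none beyond overlapping genes.

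The members and lists were chosen with earlier results of these data known. Genes named besides the 10 members were Trim71, Rbbp7, Kdm6a, Kdm6b, the 4 most changed called genes (or fewer) of each list at 1 CPM or more in the higher group, and the 3 genes most like the most changed of the called members averaging at least 10 CPM.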

Additional observations from a re-analysis of the deposited data

How the results depend on the processing

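Ezh1, Ezh2, Eed, Rbbp4, Phf19, Phf1 and Jarid2 kept their direction and call under all 16 alternatives; over the named genes 624 gene values kept both, 15 lost the call and 4 gained it with the sign unchanged, and 11 changed sign. Among those 11, the 2 offset values of Aebp2 also lost the call and the 2 of Trim71 gained it. With each library left out, 3 to 5 members were called higher and 4 lower, the all-gene count ran from 8161 to 9882, and the members' median from -0.012 to 0.13. Left-out ranges of further medians were -0.403 to -0.315 for PRC2 partners, 0.035 to 0.061 for PRC1, 0.294 to 0.401 for opposing enzymes, 0.199 to 0.266 for PR-DUB, 0.589 to 0.86 for Hox genes and -0.23 to 0.037 for other targets; PRC1 calls higher ran from 7 to 11 and Hox calls lower from 0 to 1. Left-out differences of log2 ratios ran from 1.265 to 1.358 (Ezh1/Ezh2), 0.392 to 0.634 (Phf1/Mtf2), -1.088 to -0.948 (Phf19/Mtf2) and 0.118 to 0.19 (Jarid2/Aebp2).

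With library sizes alone the medians were -0.249 (PRC2 partners), 0.154 (PRC1) and 0.33 (PR-DUB), with 1 PR-DUB and 0 Hox genes called lower, and Mtf2 at 0.049; 0 Hox genes were called lower with DESeq2 either. At 10 counts in every library 6 other targets were called lower, with a median of 0.08. With the length and GC offset, with or without the replicate block, medians were -0.107 (members), -0.267 (PRC2 partners), -0.037 (PRC1) and 0.08 (opposing enzymes, 4 called higher); PR-DUB had 4 called lower and a median of 0.141 (0.14 with the block), Aebp2 was -0.025 and Trim71 -0.213. The causes of these shifts were not tested. For Mtf2 the lowest left-out value was -0.094 (R783H C left out) and the highest 0.028 (R783H B left out), with 0.007 when WT C was left out; Trim71 was -0.022 without R783H A, -0.012 without R783H C, -0.017 without WT A and -0.016 without WT B.

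Deviations from the group means correlated between libraries of the same letter at -0.07, 0.007 and 0.085 for A, B and C. With 3 libraries per group these values cannot settle whether the letters pair the libraries. With the letter as a replicate block 9260 genes were called, again 4 members higher and 4 lower, and not every library correlated best with its own letter. Depth limits Phf19, Ezhip and most Hox genes, whose libraries held few counts.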

Other observations

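Outside the naming rule, and chosen after their values were seen, the PRC1 subunit families showed changes in both directions. Among the chromodomain genes, whose proteins read the PRC2 mark, Cbx2 fell from 57.3 ± 1.46 to 39.8 ± 1.74 CPM (SD, n = 3; log2 -0.52, SE 0.05). Cbx7, the abundant member of embryonic stem cells, had 154.4 ± 4.43 CPM in R783H against 147 ± 4.53 CPM in WT (SD, n = 3; edgeR adjusted p 0.176), and Cbx6 and Cbx8 were not called. The catalytic genes Rnf2 (-0.39, SE 0.07) and Ring1 (-0.42, SE 0.11) were lower. Among the Pcgf genes, which define the PRC1 variants, Pcgf6 (-0.35, SE 0.04) was lower and Bmi1 (0.26, SE 0.09) higher besides Pcgf1, while Pcgf2, Pcgf3 and Pcgf5 were not called. Cdkn2a, a locus repressed by Polycomb complexes in many cell types, rose from 17.3 ± 0.618 to 28.9 ± 2.19 CPM (SD, n = 3; log2 0.74, SE 0.07).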
